A study of Homo sapiens with 6 samples.

Results

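Receptor tyrosine kinases are cell-surface proteins that bind a growth factor or matrix ligand outside the cell and phosphorylate tyrosines inside it. The 10 described here are EGFR, ERBB2, ERBB3, MET, IGF1R, INSR, FGFR1, PDGFRB, EPHA2 and DDR1, taken by gene name from a deposited table of 58302 genes. The RNA came from Hs766T cells, a human line established from pancreatic ductal adenocarcinoma and labelled as pancreatic tumor cells. One group overexpressed DDX18, a nucleolar DEAD-box RNA helicase (genotype label ex-DDX18, 3 libraries), and the control group was labelled plvx, with the genotype label WT (3 libraries). The labels give no treatment or time and do not say whether the overexpressing cells were 1 clone. Per the series design each group was sequenced 3 times, and whether separate cultures were used is not stated. P-values, and the intervals given below, therefore rest on a spread between libraries that may be technical only. The series asks what high DDX18 does to other molecules of these cells, and the comparison below asks it of the receptors.

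Receptors act in pairs that ligand binding activates, and the paired kinases phosphorylate each other and recruit adaptors that feed the RAS and PI3K pathways. EGFR, ERBB2 and ERBB3 pair among themselves, and IGF1R pairs with INSR. In pancreatic ductal adenocarcinoma, EGFR and MET have both been studied as drug targets.

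Libraries held 15911875 to 16207995 counts. DDX18 itself measured 187.2, 197.4 and 176.9 CPM (the count as a share of its library, scaled by TMM) in the overexpressing libraries and 89.4, 82.4 and 98.3 CPM in the controls. It rose 2.08-fold, as the labels say (adjusted p = 0.00982, edgeR quasi-likelihood test with Benjamini-Hochberg adjustment over 15144 genes). The adjusted p was 0.0544 without DDX18 replicate 2 and 0.0643 without plvx replicate 2. Of the ductal and epithelial markers, KRT7, KRT8 and KRT18 were at 511.6 to 2387 CPM, while EPCAM and CDH1 were at 1.74 to 7.93 CPM and KRT19 had 0 to 4 counts. Counts at or near 0, here and further on (PIK3R1 and COL1A2 among them), are values of the deposited table. Whether reads of such genes were lost in counting was not tested, so they do not show that a transcript was absent. Of 35 markers of fibroblast, pericyte, endothelial, immune, acinar and endocrine cells, 17 had no count in any library, among them the 6 acinar markers. MUC1 was at 51.1 ± 5.29 and 57.5 ± 4.15 CPM, and SOX9 at 10.5 ± 1.44 and 11.6 ± 2.94 CPM.

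None of the 10 receptors passed the adjusted threshold of 0.05 between the groups, where 0.0528% of all genes tested did (8 of 15144). By adjusted p, DESeq2 and limma-voom also called 0 of the 10. At an unadjusted p under 0.05 there was 1 receptor, PDGFRB, against 5.69% of all genes (2.5% higher with DDX18). Its unadjusted p was 0.0457 by DESeq2 and 0.0214 by limma-voom. The groups did not overlap in 1 of the 10, again PDGFRB, and in 11.5% of all genes. A single gene of 10 is near both shares, so neither count sets the receptors apart from other genes. The receptors had a median log2 fold change (DDX18 over plvx) of 0.02, against -0.0008 over all genes, and a median absolute log2 fold change of 0.08, against 0.11 over all genes. All 10 passed the filter on low counts, and 9 had at least 100 counts in every library.

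How large a change the intervals leave room for differed by receptor. They carry only the spread between these libraries, which may be technical. For 8 of the 10 the 95% interval of the fold lay within 1.5-fold in either direction, and INSR (0.857 to 1.55) reached beyond it upwards and DDR1 (0.596 to 1.39) downwards. On the log2 scale the narrowest intervals belonged to EPHA2 (0.975 to 1.21 as a fold), EGFR (0.899 to 1.12) and PDGFRB (1.03 to 1.28). That of PDGFRB was the one that did not include 1.

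**Figure D1:**
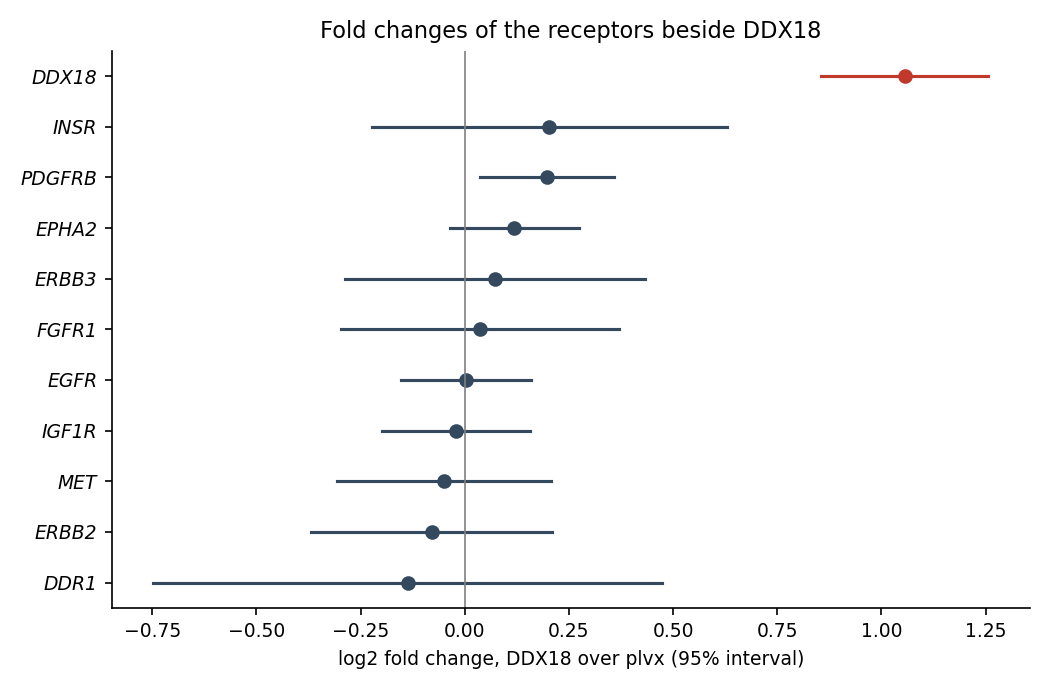
Log2 fold change (DDX18 over plvx, horizontal axis) of the 10 receptors and of DDX18, with points for the fitted value and lines for the 95% interval from the edgeR fit (3 libraries per group). DDX18 stands at 1.06, and the intervals of 9 receptors cross 0.

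Levels of different receptors were compared as CPM per kilobase of the principal GENCODE transcript, since longer transcripts give more reads. EPHA2 was highest at 59.1 ± 3.56 CPM per kb (SD over 6 libraries), followed by EGFR at 50.3 ± 2.07 and ERBB2 at 24.4 ± 2.87. The ranges of these 3 over the libraries did not meet. PDGFRB (17.2 ± 1.39), MET (14.8 ± 1.46), DDR1 (13.6 ± 3.69) and IGF1R (13.4 ± 0.722 CPM per kb) came next, and each overlapped its neighbour in this order. INSR (5.36 ± 0.921) and FGFR1 (4.79 ± 0.589 CPM per kb) overlapped each other, and ERBB3 was lowest at 0.912 ± 0.0768 CPM per kb. With the merged length of all annotated exons in place of the principal transcript, EPHA2 and EGFR stayed first and second and ERBB3 last, but ERBB2 went from rank 3 to rank 6.

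Receptor tyrosine kinases outside the 10 gave a frame for these levels. Their levels were taken per kb of the principal transcript only. Whether their order against the 10 holds with the merged exon length was not tested. Of 48 others, 13 had a mean of at least 5 CPM and 10 had no count in any library, among them PDGFRA, KDR, RET and ALK. AXL, a receptor for GAS6, stood between EPHA2 and EGFR at 54.7 CPM per kb and overlapped both. EPHB4 stood above ERBB2 at 36.6. ROR2 had a higher mean than ERBB2 at 27.7 but overlapped it (25.6 to 30.2 against 20.8 to 27.5 CPM per kb). FGFR4 (17.3 CPM per kb) and FGFR3 (9.26) both lay above FGFR1, while FGFR2 lay below it at 1.84. MST1R, the receptor nearest to MET in sequence, was at 12.1 CPM per kb. The rest were RYK (23.5), AATK (21.0), TYRO3 (12.1), LMTK2 (8.18), EPHB2 (6.38) and PTK7 (3.08 CPM per kb). None of the 21 others tested passed the threshold or an unadjusted p under 0.05 (smallest adjusted p 0.87, FGFR4), and the 13 expressed ones had folds of 0.82 to 1.13.

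**Figure D2:**
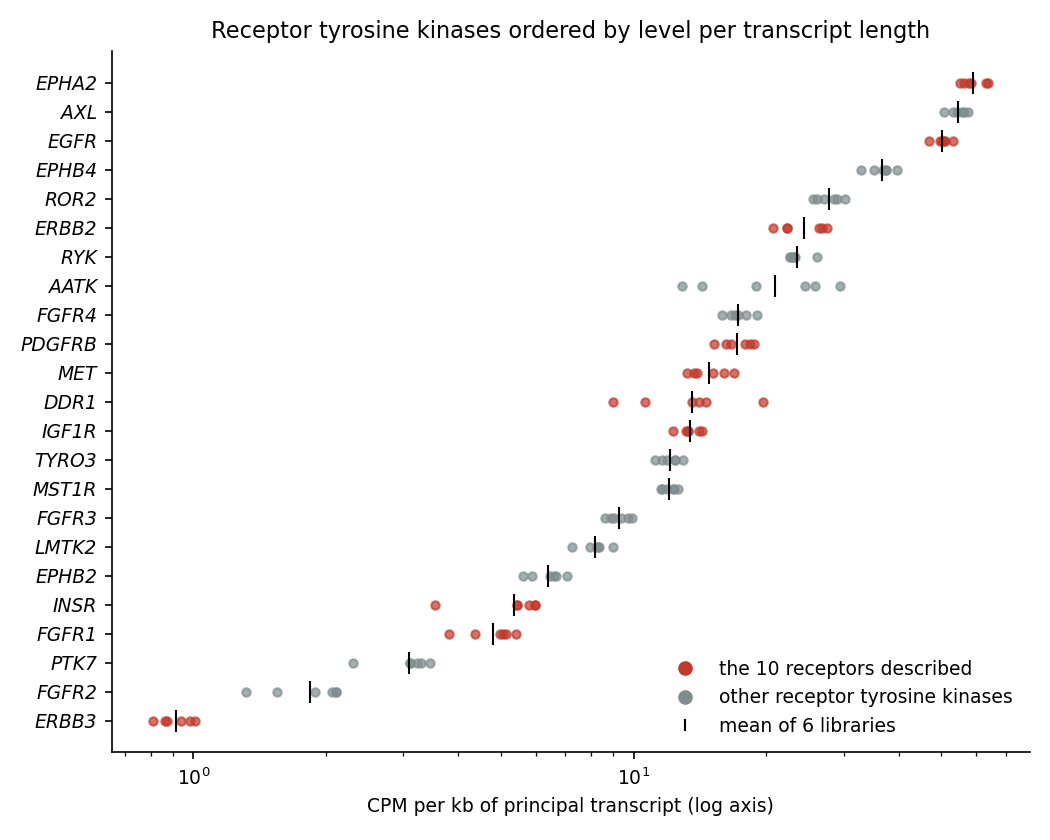
Level of each receptor tyrosine kinase with a mean of at least 5 CPM, in CPM per kb of principal transcript (log axis), with 1 point per library and a tick for the mean of 6. EPHA2, AXL and EGFR lead at 50.3 to 59.1 CPM per kb, and ERBB3 is last at 0.912.

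EGFR, the receptor for EGF and TGF-alpha, gave the most counts of the 10 (ENSG00000146648, chromosome 7, 55019021 to 55211628, plus strand). It measured 501.6, 493.2 and 488.2 CPM with DDX18 and 460.0, 522.3 and 498.1 CPM in the controls. The DDX18 libraries lay inside the range of the controls, and the means were 494.3 ± 6.75 and 493.5 ± 31.4 CPM (SD, n = 3 each; 1.00-fold, adjusted p = 1, edgeR). EGFR made up 35.2% to 39.5% of the summed CPM of the 10 receptors. The start of the gene is printed here because EGFR and EPHA2 led the levels per length. The window is chr7:55018767-55019066, plus strand, RefSeq, GRCh38.p14, 250 bases before to 50 after the start, written 5′ to 3′. Capitals mark GC boxes (GGGCGG or its reverse complement):
EGFR: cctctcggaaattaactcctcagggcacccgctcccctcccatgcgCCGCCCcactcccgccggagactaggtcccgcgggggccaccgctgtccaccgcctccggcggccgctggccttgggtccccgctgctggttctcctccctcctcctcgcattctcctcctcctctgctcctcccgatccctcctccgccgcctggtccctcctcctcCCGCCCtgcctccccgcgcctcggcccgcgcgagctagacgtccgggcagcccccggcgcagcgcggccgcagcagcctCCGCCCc
It held 3 GC boxes, a motif that 45.0% of 35116 such RefSeq windows hold, and neither TATAAA (11.5% of windows) nor CCAAT (34.6%), searched on both strands. Its GC content was 75.3%. A match describes the letters and is no evidence of binding.

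ERBB2, a receptor with no known ligand of its own that serves as partner to the others, measured 101.6, 101.5 and 119.9 CPM with DDX18 and 125.1, 121.9 and 94.4 CPM in the controls. Its lowest library was a control and so was its highest, so the groups overlapped (107.7 ± 10.6 against 113.8 ± 16.9 CPM, adjusted p = 0.963). ERBB2 (ENSG00000141736, chromosome 17, 39687914 to 39730426, plus strand) shares 571 exonic bases with MIEN1 on the other strand. MIEN1 had 1012 counts in DDX18 replicate 2 and 291 to 477 in the other 5 libraries, while ERBB2 had 1626 counts in that library and 1533 to 1984 over all 6. The counting is not stated to use strand, so reads from the shared bases cannot be assigned to 1 of the genes. PGAP3, also on the other strand, shares 194 exonic bases with ERBB2 and had 153 to 179 counts.

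ERBB3, which binds neuregulins and has weak kinase activity of its own, had the fewest counts of the 10. Its counts were 94, 77 and 95 with DDX18 and 79, 84 and 90 in the controls. That is 5.53 ± 0.636 against 5.26 ± 0.243 CPM, with groups that overlapped (adjusted p = 0.974), on chromosome 12 (ENSG00000065361, 56079857 to 56103505, plus strand).

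Ratios within a library do not depend on how libraries are scaled, and were taken for receptors that pair. The ERBB2 count was 18.95% to 27.2% of the EGFR count, and the ERBB3 count was 4.07% to 5.87% of the ERBB2 count. These shares are of counts and are not corrected for transcript length (EGFR 9.821 kb, ERBB2 4.545 kb, ERBB3 5.919 kb). They are therefore not the balance of levels per kb given above. On the log2 scale the ratio of ERBB2 to EGFR was -2.20 ± 0.154 with DDX18 and -2.13 ± 0.261 in the controls (exact permutation p = 0.7, two-sided). The ratio of ERBB3 to ERBB2 was -4.28 ± 0.143 and -4.42 ± 0.29 (exact permutation p = 0.6). With 3 libraries against 3 this test cannot go below 0.1. The difference in the ratio of ERBB2 to EGFR changed sign from -0.08 to 0.05 without plvx replicate 1.

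Growth factors of the ERBB family, some of which act through ERBB4 rather than these 3 receptors, had low counts in the same libraries. Of 11 ERBB ligands, 5 could be tested and 3 had no count in any library. HBEGF, the heparin-binding member, was at 10.5 ± 0.843 with DDX18 and 10.2 ± 0.777 CPM in the controls. NRG4 was at 8.18 ± 0.222 and 8.22 ± 1.33 CPM and NRG1 at 6.67 ± 0.856 and 5.95 ± 1.37 CPM, both neuregulins. EGF itself had 0 to 3 counts per library. No ligand of the list passed the threshold, and AREG, amphiregulin, had the smallest p at 5 to 16 counts per library (adjusted p = 0.926).

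MET, the receptor for hepatocyte growth factor, measured 92.6, 106.5 and 91.2 CPM with DDX18 and 87.5, 100.5 and 112.4 CPM in the controls. Both the lowest and the highest library were controls (96.8 ± 8.46 against 100.1 ± 12.5 CPM, adjusted p = 0.976; ENSG00000105976, chromosome 7, 116672390 to 116798386, plus strand). HGF, its ligand, had no count in any of the 6 libraries. By the limit of 3 counts this allows up to 0.193 CPM in the smallest library, provided that no reads were lost in counting. Of 6 genes listed for the ligand and its processing, 3 were tested and 0 passed the threshold. ST14, the membrane protease matriptase that can activate pro-HGF, was at 47.0 ± 3.77 and 53.2 ± 1.74 CPM and had the smallest p of the list (adjusted p = 0.86). Its groups did not overlap, with 42.7 to 49.9 CPM in the DDX18 libraries and 51.2 to 54.4 CPM in the controls, as in 5.71% of genes for this direction. SPINT1 and SPINT2 encode inhibitors of such proteases. SPINT1 was at 6.68 ± 1.04 and 7.40 ± 1.85 CPM, and SPINT2 at 2.83 ± 0.363 and 2.30 ± 0.377 CPM.

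IGF1R, the receptor for insulin-like growth factors, measured 175.4, 150.7 and 162.2 CPM with DDX18 and 172.1, 160.7 and 162.5 CPM in the controls. The control range lay inside that of the DDX18 libraries (162.8 ± 12.4 against 165.1 ± 6.13 CPM, adjusted p = 0.989; ENSG00000140443, chromosome 15, 98648971 to 98964530, plus strand). INSR, the insulin receptor, measured 27.3, 28.2 and 25.7 CPM with DDX18 and 28.2, 16.7 and 25.7 CPM in the controls. Its fold of 1.15 (27.1 ± 1.27 against 23.5 ± 6.03 CPM, adjusted p = 0.928) rested on plvx replicate 2, the lowest library: without it the log2 fold change went from 0.20 to 0.01. INSR lies on chromosome 19 (ENSG00000171105, 7112255 to 7294034, minus strand).

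The INSR count was 10.4% to 18.7% of the IGF1R count, again without correction for transcript length (4.721 kb and 12.235 kb). The log2 ratio was -2.59 ± 0.147 with DDX18 and -2.85 ± 0.364 in the controls (exact permutation p = 0.5). The low value of plvx replicate 2 (-3.27) stood apart from the other 5 libraries (-2.68 to -2.42).

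Of 13 genes of the insulin and IGF axis, 8 were tested and 0 passed the threshold. Their log2 fold changes were positive in 7 and negative in 1 (median 0.16), against 7535 and 7609 over all genes. IGFBP7, a secreted binding protein, had the smallest p. It measured 242.8, 227.9 and 270.6 CPM with DDX18 and 207.0, 210.4 and 184.6 CPM in the controls, groups that did not overlap (1.23-fold, unadjusted p = 0.00954, adjusted p = 0.8). IGFBP3, the most counted binding protein, was at 342.0 ± 85.9 and 337.7 ± 57.4 CPM, and IGF2R, which clears IGF2, at 219.0 ± 10.4 and 225.7 ± 1.31 CPM. IRS1 and IRS2, docking proteins of both receptors, were also apart, and are named after their values were seen. IRS1 was at 81.8 ± 1.32 and 72.6 ± 7.07 CPM and IRS2 at 173.2 ± 4.18 and 157.4 ± 3.52 CPM (adjusted p = 0.86 each). The groups thus did not overlap in 3 of the 8, all higher with DDX18, as were 5.83% of all genes. The ligands IGF1 and IGF2 had 0 to 7 counts per library, and INS had none.

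FGFR1, a receptor for fibroblast growth factors, measured 25.8, 29.8 and 30.2 CPM with DDX18 and 29.4, 22.4 and 31.8 CPM in the controls, so the DDX18 range lay inside that of the controls (28.6 ± 2.44 against 27.9 ± 4.89 CPM, adjusted p = 0.989). The gene is ENSG00000077782, on chromosome 8 from 38411138 to 38468834, minus strand. Of 15 FGF ligands, coreceptors and adaptors, 4 were tested and 0 passed the threshold. FGF2 was the only ligand of the list with enough counts to be tested, at 22.9 ± 1.67 and 25.4 ± 2.98 CPM (the smallest p of the list, adjusted p = 0.917), and FGFRL1, a receptor without a kinase, was at 93.0 ± 1.47 and 97.1 ± 2.88 CPM. FRS2, the docking adaptor of FGF receptors, stood at 2 levels: 11.6, 12.3 and 12.2 CPM in DDX18 replicates 1 and 3 and plvx replicate 1, and 5.05, 5.77 and 3.82 CPM in DDX18 replicate 2 and plvx replicates 2 and 3. These levels cut across the groups.

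PDGFRB, the receptor for PDGF-BB and a gene of fibroblasts and pericytes, was the receptor whose groups did not overlap. It measured 102.6, 107.1 and 105.3 CPM with DDX18 and 92.9, 94.95 and 86.95 CPM in the controls. All 3 DDX18 libraries were above all 3 controls, as in 5.83% of genes tested. The difference was 1.15-fold (105.0 ± 2.27 against 91.6 ± 4.15 CPM, log2 fold change 0.20 ± 0.0691 SE) and did not pass the threshold (unadjusted p = 0.0225, adjusted p = 0.841). Leaving out a library gave log2 fold changes of 0.16 to 0.22 and unadjusted p-values of 0.0341 to 0.0696. PDGFRB (ENSG00000113721) spans 150113837 to 150155872 on chromosome 5, minus strand.

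The window at its start is shown because of this separation (chr5:150155796-150156095, minus strand, GRCh38.p14, same limits). Capitals mark GC boxes and a CCAAT box, the core of the motif bound by NF-Y:
PDGFRB: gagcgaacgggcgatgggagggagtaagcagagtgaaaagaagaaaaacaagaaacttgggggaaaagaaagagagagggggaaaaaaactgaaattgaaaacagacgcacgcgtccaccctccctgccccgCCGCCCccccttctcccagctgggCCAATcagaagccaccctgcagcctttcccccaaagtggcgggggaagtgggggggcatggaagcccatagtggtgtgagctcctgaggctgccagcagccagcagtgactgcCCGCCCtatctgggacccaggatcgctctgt
The window held 2 GC boxes and 1 CCAAT, with a GC content of 59.3%, and no TATAAA.

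Ligands of PDGFRB were measured as well. PDGFB, which binds it, measured 24.4, 21.96 and 24.3 CPM with DDX18 and 20.9, 18.9 and 18.7 CPM in the controls. Its groups did not overlap either, as in 5.83% of genes tested for this direction (1.21-fold, unadjusted p = 0.027, adjusted p = 0.841). PDGFA was at 17.3 ± 1.5 and 20.2 ± 4.11 CPM, and PDGFC and PDGFD had 2 to 14 counts per library. Of the 4 ligands, 2 were tested and 0 passed the threshold.

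Fibroblast and pericyte markers other than PDGFRB were read beside it. Of 12 such markers, 6 were tested and 0 passed the threshold. At an unadjusted p under 0.05, where 483 of all 15144 genes were lower, 0 of the 6 were higher and 3 lower with DDX18: COL1A1 (55.1 ± 3.17 against 66.8 ± 4.39 CPM), CSPG4, a pericyte proteoglycan (100.3 ± 7.02 against 116.0 ± 6.88 CPM), and RGS5, a pericyte gene (1.10 ± 0.102 against 1.83 ± 0.437 CPM). DCN, a matrix proteoglycan, was at 10.8 ± 2.15 and 10.2 ± 1.95 CPM. The summed level of the 12 was 157.7 to 175.8 CPM with DDX18 and 188.3 to 208.4 CPM in the controls, opposite in sign to PDGFRB. COL1A1 and CSPG4 made up most of this sum, and THY1, a surface glycoprotein of fibroblasts, had 1.35 ± 0.262 CPM (DDX18) and 1.17 ± 0.0595 CPM (plvx). The part of such cells in the PDGFRB difference was not tested. PDGFRA, COL1A2 and PDPN had no count in any library. Endothelial markers summed to 5.05 to 7.74 CPM, most of it VWF (5.37 ± 0.373 and 5.53 ± 1.58 CPM), with PECAM1 and KDR at 0, and immune markers summed to 3.74 to 6.22 CPM. In bulk RNA, fewer cells of a type and less RNA per cell cannot be told apart.

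EPHA2, a receptor for ephrin-A ligands on neighbouring cells, measured 228.6, 250.2 and 253.1 CPM with DDX18 and 231.3, 223.6 and 219.0 CPM in the controls. DDX18 replicates 2 and 3 were above every control, while replicate 1 lay among them. The means were 244.0 ± 13.4 and 224.6 ± 6.18 CPM (1.09-fold, unadjusted p = 0.114, adjusted p = 0.863). EPHA2 (ENSG00000142627) spans 16124337 to 16156087 on chromosome 1, minus strand. The window at its start is chr1:16156020-16156319 on the minus strand (GRCh38.p14). Capitals mark a GC box and TGACGTCA, the cyclic AMP response element bound by CREB and ATF factors:
EPHA2: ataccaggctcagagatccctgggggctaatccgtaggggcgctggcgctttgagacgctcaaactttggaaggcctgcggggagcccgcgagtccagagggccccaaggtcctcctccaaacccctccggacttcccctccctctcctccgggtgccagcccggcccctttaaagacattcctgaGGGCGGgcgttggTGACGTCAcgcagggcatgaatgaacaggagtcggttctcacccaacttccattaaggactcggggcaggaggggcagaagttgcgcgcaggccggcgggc
TGACGTCA occurred in 1.85% of RefSeq windows. It was in none of the other windows of the 8 receptors that matched the RefSeq table, DDR1 with 8 windows and EGFR with 2 among them. GC boxes were counted in the window nearest to the gene start in the deposited table. EGFR, MET (3), IGF1R (2), INSR (4), PDGFRB and EPHA2 (1) had them, in windows 4 to 432 bases from that start. ERBB2 and DDR1 had none in that window, which for DDR1 starts 4549 bases away. Of the DDR1 windows further away, some held 1 to 3 GC boxes and the rest none.

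Ephrins were expressed at lower counts than EPHA2. Of 8 ephrins, 7 were tested and 0 passed the threshold. EFNA1, a ligand of EPHA2, had 69.9 ± 17.2 CPM (DDX18) and 64.9 ± 1.41 CPM (plvx), with DDX18 replicate 1 highest at 89.5 CPM. EFNB2 was at 16.9 ± 2.52 and 16.2 ± 2.4 CPM, EFNA4 at 15.2 ± 0.823 and 16.2 ± 1.16 CPM, and EFNA3, with the smallest p, at 14.1 ± 2.89 and 16.2 ± 3.2 CPM (adjusted p = 0.939).

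DDR1, a receptor for collagen, varied most of the 10 from library to library. It measured 57.7, 41.7 and 53.5 CPM with DDX18 and 77.4, 55.5 and 35.4 CPM in the controls, a range of 2.19-fold. The controls held both the highest and the lowest value, and the group means were 50.96 ± 8.26 and 56.1 ± 21 CPM (0.909-fold, adjusted p = 0.969). Without plvx replicate 1 the log2 fold change went from -0.14 to 0.17, and without plvx replicate 3 to -0.39 (unadjusted p = 0.0817). DDR1 (ENSG00000204580) spans 30876421 to 30900156 on chromosome 6, plus strand.

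Collagen chains that can serve as DDR1 ligands were abundant in part. COL4A2 was at 1014 ± 92.4 and 953.7 ± 128.5 CPM, COL5A1 at 850.5 ± 40.7 and 849.6 ± 87.9 CPM and COL4A1 at 324.9 ± 24.9 and 313.3 ± 31.9 CPM, with DDX18 and in the controls. COL1A1 had the smallest p of the 4 tested chains of 8 (0.824-fold, unadjusted p = 0.0128, adjusted p = 0.814), and COL1A2, COL2A1, COL3A1 and COL5A2 had 0 to 7 counts per library. None passed the threshold.

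**Figure D3:**
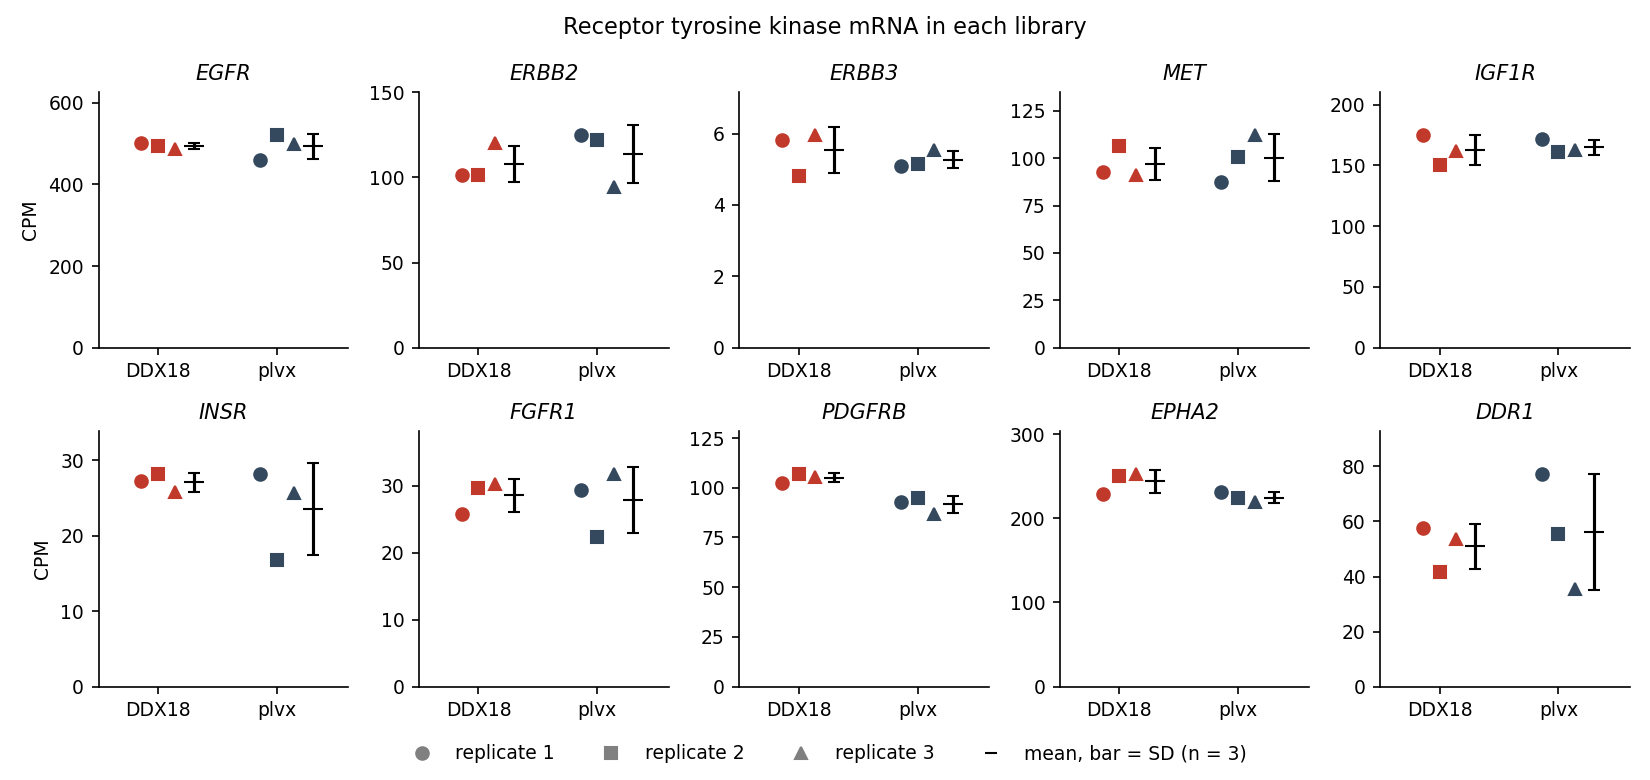
CPM of each receptor in each library (vertical axes start at 0 and differ between panels), red for DDX18 and dark blue for plvx, with shapes for replicates and bars for mean and SD (n = 3). The groups are apart for PDGFRB, while DDR1 ranges from 35.4 to 77.4 CPM and INSR has 1 low control at 16.7 CPM.

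MET and DDR1 varied in opposite directions over the 6 libraries. Over the 45 pairs of receptors, 3 had an exact permutation p under 0.05 and 0 had one after Benjamini-Hochberg adjustment. MET and DDR1 had the smallest (Pearson r = -0.92, exact permutation p = 0.0069, adjusted p = 0.311; Spearman rho = -0.83, exact permutation p = 0.0583). Without the 2 libraries furthest from the median of MET, r was -0.65. The other 2 pairs were PDGFRB with EPHA2 (r = 0.84, exact permutation p = 0.0403, adjusted p = 0.729; Spearman rho = 0.77, exact permutation p = 0.103) and ERBB2 with DDR1 (r = 0.80, exact permutation p = 0.0486, adjusted p = 0.729; Spearman rho = 0.83, exact permutation p = 0.0583). Without the 2 libraries furthest from the median of PDGFRB and of ERBB2, r was 0.68 and 0.43. All of these correlations pooled the groups. For PDGFRB, whose groups did not overlap, r therefore includes the difference between the groups.

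Base composition of all genes moved with these libraries. The principal transcript of MET has a GC content of 42.4%, that of DDR1 61.1%, that of ERBB2 60.3%, that of EPHA2 60.3% and that of PDGFRB 57.6%. In plvx replicate 3, where MET was highest and DDR1 and ERBB2 lowest, genes with a GC content up to 41.8% lay at a median of 0.14 from their own mean over the libraries (log2 scale), and genes with at least 58.97% lay at -0.12. In plvx replicate 1, where MET was lowest and DDR1 and ERBB2 highest, the same medians were -0.06 and 0.08. The remaining libraries followed this order only in part. DDX18 replicate 3 had medians of -0.10 and 0.04. There MET was near its lowest (91.2 CPM) and ERBB2 towards its highest (119.9 CPM), while DDR1 at 53.5 CPM was in the middle of its range. DDX18 replicate 2 had medians of 0.02 and 0.03, with the second highest MET (106.5 CPM) and the second lowest DDR1 (41.7 CPM). The part of base composition in the receptor values was not tested.

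**Figure D4:**
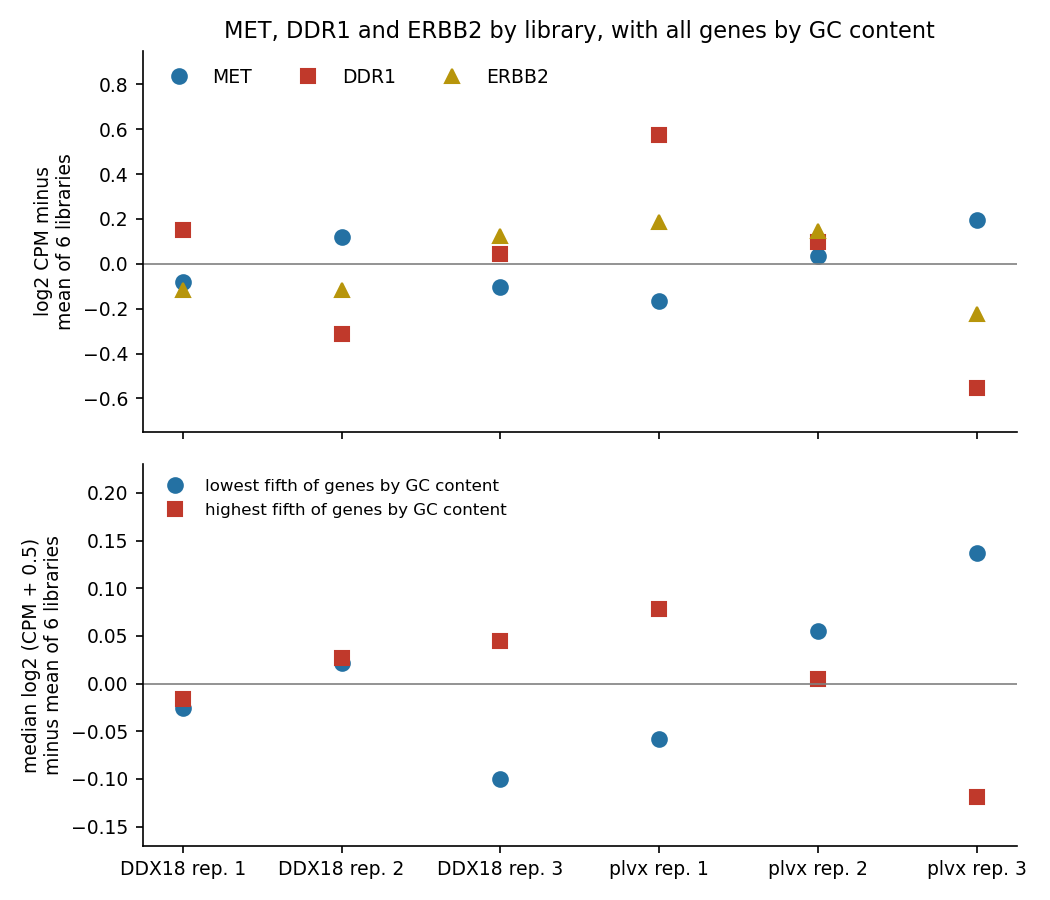
Upper panel: log2 CPM of MET, DDR1 and ERBB2 in each library, minus the gene's mean over the 6 libraries. Lower panel: median of log2(CPM + 0.5) minus each gene's mean, for tested genes of low (up to 41.8%) and high (at least 58.97%) GC content, at 0.14 and -0.12 in plvx replicate 3 and -0.06 and 0.08 in plvx replicate 1.

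The 10 receptors together made up 0.128% to 0.134% of all counts. Their summed level was 1319, 1314 and 1335 CPM with DDX18 and 1309, 1324 and 1272 CPM in the controls, ranges that overlapped. The means of 1323 ± 11.3 and 1301 ± 26.6 CPM differed by 21.2 CPM (exact permutation p = 0.3, two-sided). Summed as deposited FPKM, the groups did not overlap (exact permutation p = 0.1, the smallest this design allows).

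Downstream of the receptors, adaptors and signalling enzymes were expressed broadly and 0 of 20 tested (of 21) passed the threshold. PIK3R2, a regulatory subunit of PI3K, was at 251.6 ± 42.5 and 303.4 ± 12.8 CPM (unadjusted p = 0.0497), SHC1, an adaptor, at 207.0 ± 10.5 and 208.7 ± 14.3 CPM and STAT3, a transcription factor, at 198.3 ± 9.41 and 189.1 ± 5.71 CPM. NCK2, an SH2 and SH3 adaptor, had the smallest p of the list, at 13.3, 16.8 and 16.4 CPM with DDX18 and 12.7, 11.7 and 10.04 CPM in the controls (1.35-fold, unadjusted p = 0.0173, adjusted p = 0.841). PIK3R1, another regulatory subunit of PI3K, had 0 to 3 counts per library and was not tested.

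GRB2, the adaptor that links receptors to SOS and RAS, stood at separate levels that crossed the groups. It measured 185.4 CPM in DDX18 replicate 2 and 183.7 CPM in plvx replicate 1, and 48.5 to 70.1 CPM in the other 4 libraries. CBL, the ubiquitin ligase that sends active EGFR and MET to degradation, measured 31.75 CPM in DDX18 replicate 1 and 99.0 to 116.0 CPM in the other 5. Both were named after their values were seen, and whether the levels of GRB2, CBL and FRS2 come from the cells or from how reads were counted was not tested. EGFR was at 493.2 CPM in DDX18 replicate 2, at 460.0 CPM, its lowest, in plvx replicate 1 and at 501.6 CPM in DDX18 replicate 1.

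Genes that turn receptors off or release their ligands were tested in full, and 0 of 20 passed the threshold. PTPRF, a receptor phosphatase, was at 547.9 ± 20.2 and 534.5 ± 27.7 CPM, HGS, which sorts ubiquitinated receptors in endosomes, at 170.2 ± 9.75 and 189.6 ± 27.1 CPM and PTPN1, a phosphatase of INSR among others, at 125.9 ± 1.35 and 126.5 ± 8.1 CPM. ADAM10, a protease that sheds ligands and receptors, had the smallest p (28.4, 28.3 and 27.1 CPM with DDX18 and 30.9, 33.0 and 34.1 CPM in the controls, unadjusted p = 0.0305, adjusted p = 0.849). Over the 9 lists of ligands, processing, adaptors and down-regulation, 73 of 106 genes were tested, 0 passed the threshold, and 6 (8.22%) had an unadjusted p under 0.05, 3 higher and 3 lower, against 5.69% of all genes. The groups did not overlap in 13 of the 73 (17.8%, 8 higher and 5 lower), against 11.5% of all genes.

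For each receptor the expressed gene with the most similar profile was sought among 11091 genes, by Pearson r of log2 CPM over the 6 libraries. The highest r ranged from 0.986 to 0.998 over the receptors. With so many genes and 6 libraries, values of this size are a description only. The nearest profile was that of NUAK1 for EPHA2, EGR1 for PDGFRB, TMEM109 for ERBB2, TRAM2 for ERBB3, RPL13 for MET, KIF13B for IGF1R, ATP6V0E2 for INSR, CYBC1 for FGFR1 and MUC20-OT1 for DDR1.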

How the data were processed

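The 6 Hs766T libraries (spelled HS7666T in the titles) were prepared with the SMARTER mRNA-seq Library Prep Kit, as the labels' protocols state. The authors deposited raw counts per gene and FPKM per the file headers. Which aligner and counter were run, and whether strand was used, is not given here by any source. The submitters' processing notes name GRCm38 and mm10, but the table holds human Ensembl genes, and 56647 of the 58039 found in GENCODE 29 have its GRCh38 positions, so coordinates were read as GRCh38.

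Counts were filtered (filterByExpr), scaled (TMM) and compared by the quasi-likelihood F-test of edgeR 4.0.16 (R 4.3.3), with no covariate and Benjamini-Hochberg adjustment over 15144 genes. Intervals use the standard error from that F. The common coefficient of variation between replicates was 15.9%. Levels per kb use the APPRIS principal transcript of GENCODE 29, or the longest where none is marked. FPKM was used only as an alternative unit, because the length it implies exceeds the merged exons (EGFR: 16748 against 12521 bases). The edgeR step was tested on simulated data. Gene lists use the protein-coding row where a symbol has more than 1 row.

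Members, lists and tests were chosen with earlier results of these data known. Named genes are the 10 receptors and DDX18, other receptor tyrosine kinases with a mean of at least 5 CPM, in each list the 3 tested genes with the highest mean and the tested gene with the smallest p, markers with a mean of at least 5 CPM, and the nearest profile of each receptor. The nearest profile of EGFR is not reported here. Others are named as counts at or near 0 or were chosen after their values were seen. Alternatives were DESeq2 1.42.0 and its size factors, library totals, upper-quartile scaling, no filter or 5 CPM in 3 libraries, limma-voom (limma 3.58.1), limma on log2(FPKM + 1) and log2(FPKM + 0.1), a replicate block and leaving out each library.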

Additional observations from a re-analysis of the deposited data

How the results depend on the processing

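None of the 10 receptors passed the threshold in any of the 16 alternatives, with adjusted p-values of 0.63 to 1, the lowest being PDGFRB without plvx replicate 1. ERBB2, ERBB3, INSR, PDGFRB and EPHA2 kept their sign in all 16. Of the 160 values of all 10 receptors, 8 changed sign, all of them among the other receptors and each when a library was left out. Without single libraries, log2 fold changes were -0.0455 to 0.045 for EGFR (-0.0144 without DDX18 replicate 1) and -0.1376 to 0.0369 for MET. They were -0.0829 to 0.0327 for IGF1R (0.0108 without plvx replicate 1), -0.10 to 0.14 for FGFR1 (-0.0054 without DDX18 replicate 3) and -0.39 to 0.17 for DDR1. The number of genes called over the table was 8, against 39 by DESeq2, 4 with no filter, 1 with the replicate block and 3 to 14 when a library was left out. That block was not used as pairing because deviations from the group mean correlated little between same-numbered libraries (r = -0.06, 0.07 and -0.10). The deviations were taken on the log2 scale for genes with a mean of at least 5 CPM. With the block, DDX18 had an adjusted p of 0.153. The summed level of the receptors stayed higher with DDX18 by 5.91 FPKM (exact permutation p = 0.1), by 21.6 to 33.0 CPM under other scalings, and by 6.41 to 32.2 CPM without single libraries. Leaving out libraries gave differences in log2 ratio of -0.2141 to 0.0462 for ERBB2 to EGFR, 0.04 to 0.31 for ERBB3 to ERBB2 and 0.05 to 0.38 for INSR to IGF1R. Where a value moved, the cause was not tested. At 77 to 95 counts per library, counting noise adds to the spread of ERBB3.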
